A study of Mus musculus with 48 samples.

Results

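The Cyp2 genes encode one family of cytochrome P450 enzymes, and their transcripts were followed in mouse liver with and without the clock gene Bmal1. Members were taken by name alone: a gene symbol made of Cyp2, a subfamily letter and a number, with a mean of at least 10 counts over the 48 libraries. This gave 36 of the 45 Cyp2 genes in a table of 23732 genes. There were 13 genes of subfamily c, 7 of d, 4 of a, 3 each of b and j, and 1 each of e, f, g, r, s and u. Of the 9 genes left out, Cyp2j8 (mean 4.33 counts) and Cyp2c65 (mean 1.88) came nearest to the limit from below, and of the members Cyp2d11 (15.5) and Cyp2s1 (21.02) came nearest from above.

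All mice were male C57BL/6 animals of 4 to 6 months. KO mice were homozygous for a floxed Bmal1 allele and carried a ubiquitous Cre that tamoxifen activates (Bmal1f/f-EsrCre), while mice called WT in the labels were Cre-negative Bmal1f/f littermates. Tamoxifen (5 mg per day by gavage, 5 days) went to both genotypes, so every liver had been exposed to the drug, and Cre itself cannot be told apart from loss of Bmal1. Deletion was not limited to the liver or to hepatocytes. A week later the mice were moved to constant darkness for 36 h and then killed in the dark at 1 of 6 times, written as zeitgeber time (ZT0, ZT4, ZT8, ZT12, ZT16 and ZT20). Each of the 12 groups held 4 separate mice, and p-values measure the spread between these mice.

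P450 enzymes of the Cyp2 family sit in the endoplasmic reticulum, take electrons from P450 oxidoreductase and use heme to oxidise drugs, pollutants, steroids and fatty acids. In rodent liver many of them differ between the sexes through the pattern of growth hormone release, and others are induced when foreign compounds activate the receptors CAR and PXR. BMAL1 drives the proline- and acidic-rich clock factors DBP, TEF and HLF, which are known to act on CAR and on some P450 genes such as Cyp2a5.

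Several members are recent duplicates of one another, which bears on every value that follows because how the counting treated reads that fit more than 1 gene is not given in the sources used here. In the GENCODE M21 transcripts (GRCm38), 23 of the 36 members shared more than 10% of their 50-base windows with another gene, and 9 did so at 100 bases. The coding sequences of Cyp2a4 and Cyp2a5 were 98.45% identical over 1485 bases. For 3 such pairs the stretch of 60 coding bases with the most differences is shown, since reads can be told apart best there. Capitals mark the positions where the pair differs. The stretch covers coding bases 596 to 655 of Cyp2a4 and Cyp2a5, 1124 to 1183 of Cyp2c40, 1037 to 1096 of Cyp2c69, and 791 to 850 of Cyp2c50 and Cyp2c54.
Cyp2a4: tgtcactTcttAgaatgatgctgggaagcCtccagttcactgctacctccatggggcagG
Cyp2a5: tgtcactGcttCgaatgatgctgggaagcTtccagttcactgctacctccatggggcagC
Cyp2c40: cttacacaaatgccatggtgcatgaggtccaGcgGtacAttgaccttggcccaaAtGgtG
Cyp2c69: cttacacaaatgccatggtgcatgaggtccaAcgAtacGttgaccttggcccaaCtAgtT
Cyp2c50: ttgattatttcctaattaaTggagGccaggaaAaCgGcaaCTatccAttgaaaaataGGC
Cyp2c54: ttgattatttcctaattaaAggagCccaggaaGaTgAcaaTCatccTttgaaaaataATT
Between Cyp2a4 and Cyp2a5 4 of these 60 bases differed, against 6 for Cyp2c40 and Cyp2c69 and 11 for Cyp2c50 and Cyp2c54. Cyp2c40 shared the largest part of its sequence, 72.1% of its 50-base windows. Cyp2c69 followed with 54.8%, Cyp2c67 with 52.8%, Cyp2c68 with 43.3%, Cyp2a5 with 40.8% and Cyp2a4 with 38.8%. Cyp2c70, Cyp2c44, Cyp2j9, Cyp2r1 and Cyp2s1 shared no exact 50-base window with any other gene, so their counts are less open to this choice. Reads that align with mismatches were not examined.

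Libraries held 33562272 to 34035644 counts, and 14836 genes were tested. Arntl, the table's name for Bmal1, had group means of 1.35 to 43.9 CPM (counts scaled by library size) in WT and 10.1 to 17.9 CPM in KO; counts cover the whole gene, so they check the deletion only in part. Dbp, a direct target of BMAL1, ran from 0.973 CPM at ZT0 to 146 CPM at ZT8 in WT, against group means of 6.86 to 28.2 CPM in KO. The 5 hepatocyte markers tested summed to 10676 to 22577 CPM in WT and 12176 to 20818 CPM in KO, and 1 of them, Apoa1, was called higher in KO (0.33 ± 0.09, SE, log2, adjusted p = 0.0194). Of 24 markers of cholangiocytes, Kupffer cells, endothelial cells and stellate cells only Kdr, an endothelial receptor, was called (93.3 CPM in WT, 82.4 in KO). KO mice weighed less (27.9 g ± 2.52, SD, n = 24) than WT mice (30.5 g ± 2.08, SD, n = 24).

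Counted together, the 45 Cyp2 genes took 1.19 to 2.57% of a WT library's counts (median 1.81%) and 1.62 to 3.08% of a KO library's (median 2.10%). Cyp2e1, which oxidises ethanol and acetaminophen, was the most abundant member per length, at 3644 CPM per kilobase of transcript in WT and 3588 in KO. Cyp2c29 followed at 1322 and 1994, Cyp2c50 at 685 and 1006, and Cyp2a5 at 472 and 305. Cyp2s1 was the lowest at 0.223 and 0.231, next to Cyp2d11 at 0.277 and 0.298. The members thus ranged from transcripts near the limit of the counts to one of the most abundant enzymes of the family. In bulk tissue fewer cells expressing a gene and less RNA per cell cannot be told apart.

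Summed by subfamily, the Cyp2c genes stood higher in KO. Their sum was 6404 CPM ± 1071 (SD, n = 24) in WT and 9692 CPM ± 2400 (SD, n = 24) in KO, higher in KO at 5 of the 6 times, with ZT4 as the exception. That moved their part of all Cyp2 transcripts from 34.4% to 44.98%. Cyp2e1, the only Cyp2e gene, went from 35.9% to 30.5% with a nearly equal level (6680.1 CPM ± 2251 against 6577 CPM ± 1582, SD, n = 24). Cyp2a genes summed to 1642 CPM ± 768 in WT and 1397 CPM ± 283 in KO (SD, n = 24), and Cyp2d genes to 2052 ± 426 and 2029 ± 459.

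**Figure D1:**
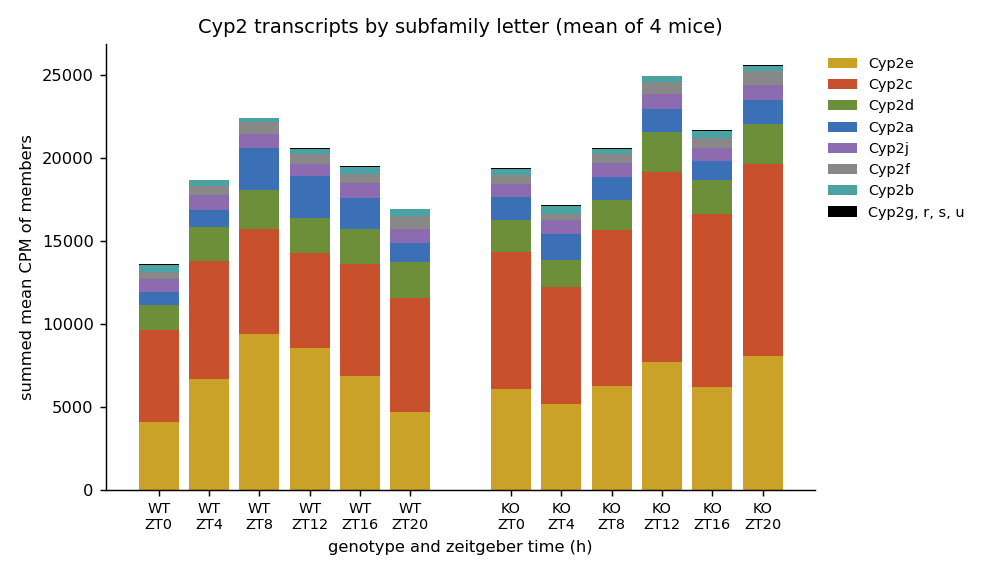
Summed mean CPM of the Cyp2 members (y axis) in each genotype and zeitgeber time (x axis), stacked by subfamily letter, each bar the mean of 4 mice. In WT the bars are lowest at ZT0 and highest at ZT8 with the Cyp2e part rising from 4053 to 9359 CPM, and in KO the Cyp2c part is the largest at all 6 times (7059 to 11595 CPM).

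Averaged over the 6 times, 14 of the 36 members were called higher in KO and 1 was called lower (adjusted p under 0.05). Among all genes tested 4.94% were called higher and 3.92% lower, 8.86% in either direction. The 38 other P450 genes of the table, used as a neighbouring group, had 7 called higher and 5 lower. The median log2 fold change of the members was 0.11, against 0.0011 over all genes. Of the 14 called higher, 10 were Cyp2c genes out of the 13 measured, 2 were Cyp2a genes (Cyp2a12 and Cyp2a22), 1 was Cyp2d12 and 1 was Cyp2g1. Cyp2u1 was the one called lower. Of the 15 called, 9 kept their sign at all 6 times and 14 kept it in each of the 3 sets of cages from which pairs of times were drawn. In 11 cages a WT and a KO mouse had been housed together and killed at the same time. These 22 mice, like the times and the cage sets, are parts of the data that gave the 15 calls. Agreement in sign is therefore no independent check. In a paired fit of these 22 mice, with cage as a block, all 15 had the same sign as in all mice. Of them 9 were called higher in that fit (0.8291% of all genes) and none lower (0.6134%), while Cyp2u1 (-0.74 ± 0.20, SE, unadjusted p = 0.00230, edgeR adjusted p = 0.0864), Cyp2a12, Cyp2a22, Cyp2c29, Cyp2c55 and Cyp2d12 were not called (adjusted p = 0.0524 to 0.294). At an unadjusted p under 0.05 that fit held 18 members, and among them Cyp2a4 (-1.35) and Cyp2u1 were lower. The share of all genes at this looser threshold is not given here. The same 22 mice with time in place of cage gave 8 called higher (0.8021% of all genes) and none lower (0.5055%).

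**Figure D2:**
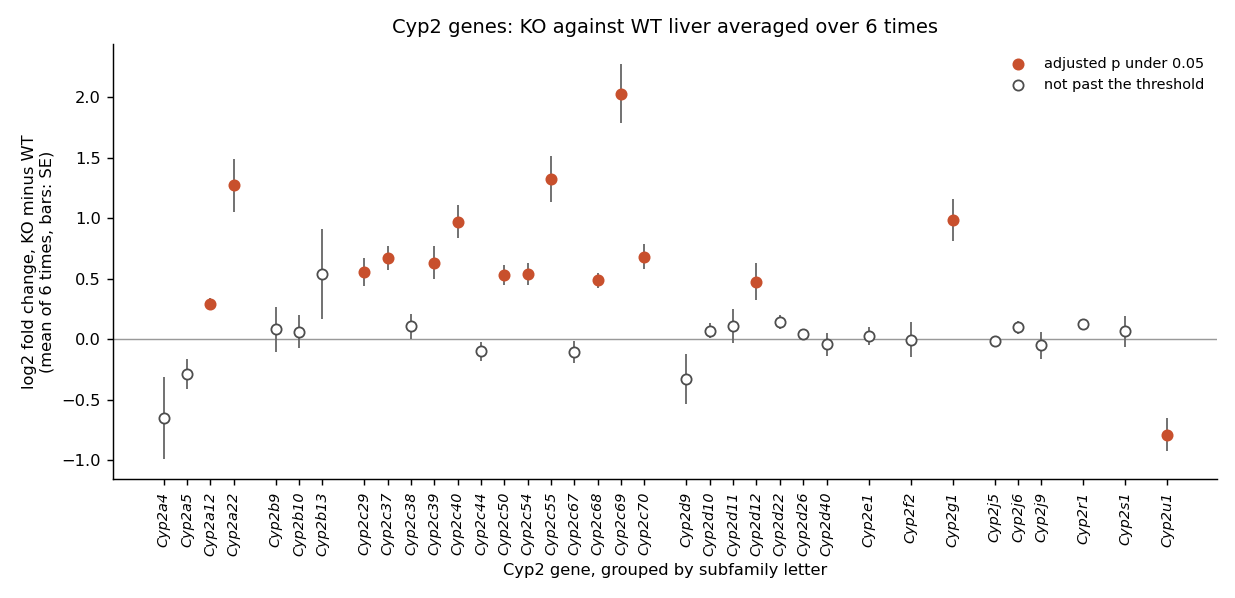
Log2 fold change of KO over WT averaged over 6 times (y axis, bars are SE) for the 36 Cyp2 genes (x axis, by subfamily letter), filled where adjusted p was under 0.05. Filled points gather in subfamily c, from 0.49 for Cyp2c68 to 2.03 for Cyp2c69, and Cyp2u1 at -0.79 is the only filled point under 0.

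Cyp2c69 showed the largest difference of any member. It lies on chromosome 19 (mm9, 39917150 to 39961259) in a row of Cyp2c genes and belongs to a group of female-biased P450 genes. In WT mice it ran from 17.8 to 239 CPM with a median of 95.6, and in KO mice from 79.0 to 814 CPM with a median of 466. The genotypes overlapped at the edges, and 17 of the 24 KO mice exceeded every WT mouse. The averaged log2 fold change was 2.03 ± 0.25 (SE), a 4.09-fold difference (adjusted p = 2.29e-07), and it was positive at all 6 times (1.58 to 2.71). At ZT8 the WT mice had 53.6, 78.0, 87.2 and 104 CPM and the KO mice 397, 427, 597 and 697 CPM. Those groups lay far apart (log2 fold change 2.71 ± 0.62, SE, adjusted p = 0.00418).

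Of its close relatives on one side, Cyp2c40, Cyp2c68 and Cyp2c67, the first 2 were called higher as well. Cyp2c40, which oxidises arachidonic acid, had 48.6 to 281 CPM in WT (median 162) and 173 to 480.4 CPM in KO (median 316), and all 24 KO mice lay above the WT median (log2 fold change 0.97 ± 0.14, SE, adjusted p = 3.75e-06). Cyp2c68 had 271 to 546 CPM in WT (median 397) and 402 to 791 CPM in KO (median 559), a narrower gap with a tighter spread (0.49 ± 0.06, SE, adjusted p = 2.54e-07). Cyp2c67 was not called, at 199 CPM ± 31.5 in WT and 187 CPM ± 59.8 in KO (SD, n = 24). Coding identity among these 4 genes was 96.54 to 98.10%, so how reads were divided among them can shift each value. Their summed level does not change with how reads were divided among the 4, but it lacks any reads left out for matching several genes. It was 865 CPM ± 169 in WT and 1481 CPM ± 318 in KO (SD, n = 24), higher in KO at all 6 times, with a mean log2 difference of 0.78. In the sum 14 of 24 KO mice exceeded every WT mouse.

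A second cluster, Cyp2c37, Cyp2c50 and Cyp2c54, was higher in KO by similar amounts. These enzymes make epoxides of arachidonic and linoleic acid, and their genes are induced through CAR. Cyp2c37 had 297 to 673 CPM in WT (median 419.7) and 434 to 1130.2 CPM in KO (median 629; log2 fold change 0.67 ± 0.10, SE, adjusted p = 1.20e-05). Cyp2c50 went from 1241 CPM ± 268 to 1823 CPM ± 441 (SD, n = 24; 0.53 ± 0.08, SE, adjusted p = 1.91e-05). Cyp2c54 went from 453 CPM ± 98.2 to 675 CPM ± 202 (SD, n = 24; 0.54 ± 0.09, SE, adjusted p = 7.08e-05). At ZT4 the log2 fold changes of Cyp2c50 and Cyp2c54 were -0.08 and -0.13, and at the other 5 times they were positive. Summed, the 3 genes had 2127 CPM ± 439 in WT and 3193 CPM ± 759 in KO (SD, n = 24), with 16 of 24 KO mice above every WT mouse.

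Cyp2c70, the enzyme that makes muricholic acids in the mouse, shares no window with another gene. It lies at chromosome 19, 40227843 to 40261823 (mm9). WT mice ran from 306 to 1180.2 CPM (median 647) and KO mice from 674 to 1783 CPM (median 1031). Every KO mouse lay above the WT median, and 7 of the 24 exceeded every WT mouse. The log2 fold change was 0.68 ± 0.10 (SE, adjusted p = 7.87e-06). The gap was widest at ZT12, where WT mice had 555, 604, 632 and 667 CPM and KO mice 1041, 1302, 1479 and 1783 CPM, with no overlap (1.19 ± 0.25, SE, adjusted p = 0.00114).

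Cyp2c55 and Cyp2c29, both induced through CAR, shared little sequence with other genes (1.13% and 2.08% of 50-base windows). A genotype by time interaction was called for both. For Cyp2c29 (adjusted p = 0.0461) that call was lost in most fits that left out a mouse. Cyp2c55 had 3.37 to 16.1 CPM in WT (median 9.22) and 5.85 to 79.6 CPM in KO (median 18.4), with an averaged log2 fold change of 1.32 ± 0.19 (SE, adjusted p = 5.69e-06). At ZT12 the WT mice had 3.37, 3.87, 4.61 and 7.64 CPM and the KO mice 14.02, 19.5, 34.96 and 79.6 CPM. At ZT4 the order was the other way: WT mice had 10.6, 13.9, 16.1 and 16.1 CPM and KO mice 6.91, 6.98, 8.69 and 9.23 CPM. The groups did not overlap at either time, and the difference was 2.93 ± 0.49 (SE, adjusted p = 7.85e-05) at ZT12 and -0.83 (adjusted p = 0.328) at ZT4. The genotype by time interaction was called for Cyp2c55 (adjusted p = 0.000874).

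Cyp2c29, the most abundant Cyp2c gene, had 997 to 3187 CPM in WT (median 2556) and 1818 to 6736 CPM in KO (median 3408). It was called on average (0.56 ± 0.12, SE, adjusted p = 0.00171), with 13 of 24 KO mice above every WT mouse. Its log2 fold change was -0.42 at ZT4 (adjusted p = 0.445) and 1.17 ± 0.29 (SE) at ZT12 (adjusted p = 0.00676, and 0.0574 without KO mouse 20). Cyp2c39 was the other Cyp2c gene called higher (0.63, adjusted p = 0.00231), while Cyp2c38 (0.11) and Cyp2c44 (-0.10) were not called. Cyp2c39 lost its call when body weight was a covariate (adjusted p = 0.0740).

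**Figure D3:**
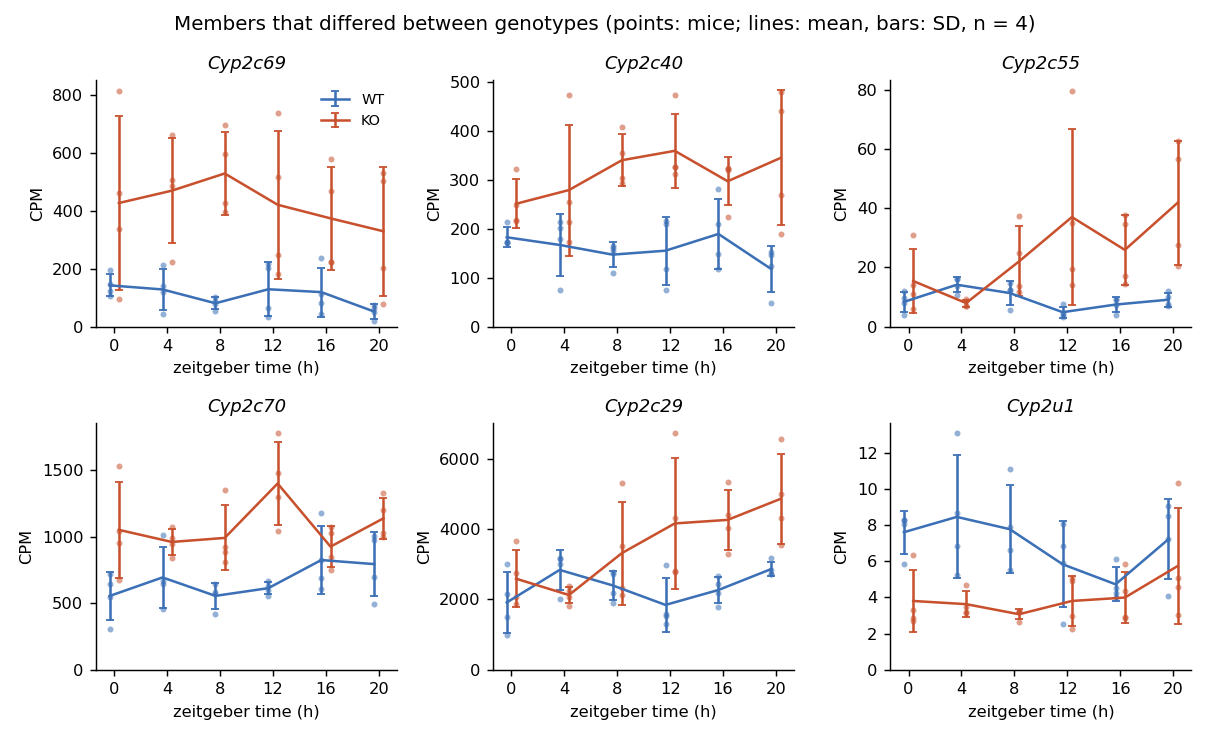
CPM (y axis) by zeitgeber time (x axis) in WT and KO liver for Cyp2c69, Cyp2c40, Cyp2c55, Cyp2c70, Cyp2c29 and Cyp2u1, with each mouse as a point and lines for the mean ± SD (n = 4). The KO mean lies above the WT mean at all 6 times for Cyp2c69, Cyp2c40 and Cyp2c70 and below it at all 6 for Cyp2u1, while for Cyp2c55 and Cyp2c29 it lies below at ZT4 and above at the other 5.

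Cyp2u1, a fatty acid hydroxylase found in many tissues, was the one member lower in KO. It lies on chromosome 3 (mm9, 130993409 to 131006145). WT mice ran from 2.53 to 13.1 CPM (median 6.83) and KO mice from 2.26 to 10.3 CPM (median 3.24). The ranges overlapped, but only 1 of the 24 KO mice lay above the WT median. The averaged log2 fold change was -0.79 ± 0.14 (SE, adjusted p = 0.000112), and it was negative at all 6 times (-1.34 to -0.24). At ZT8 WT mice had 5.49, 6.63, 7.89 and 11.1 CPM and KO mice 2.65, 3.17, 3.19 and 3.27 CPM, with no overlap (-1.34 ± 0.34, SE, adjusted p = 0.0101). Of its 50-base windows 14.8% were shared, mostly with the annotated transcript 4930534D22Rik.

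In subfamily a, 2 of the 4 genes were called higher in KO on average. Cyp2a12, which hydroxylates testosterone and bile acids, had 330.3 to 696 CPM in WT (median 555) and 550.2 to 903 CPM in KO (median 669), and 23 of 24 KO mice lay above the WT median (0.29 ± 0.05, SE, adjusted p = 3.74e-05). Cyp2a22 was scarce, at 2.28 to 15.3 CPM in WT (median 5.79) and 3.46 to 34.7 CPM in KO (median 11.5), with a log2 fold change of 1.27 ± 0.22 (SE, adjusted p = 9.65e-05). These 2 genes have 96.96% identical coding sequences, and Cyp2a22 shared 25.7% of its 50-base windows with Cyp2a12. Whether reads of the abundant Cyp2a12 fell on Cyp2a22 was not tested. Their sum was 571 CPM ± 84.3 in WT and 704 CPM ± 96.3 in KO (SD, n = 24), higher in KO at all 6 times (mean log2 difference 0.31).

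Cyp2a4 and Cyp2a5 were not called on average. Cyp2a4, a female-biased steroid hydroxylase, varied more between mice than between groups, from 19.6 to 298 CPM in WT and from 1.77 to 299 CPM in KO. Its log2 fold change was -0.65 ± 0.34 (SE, adjusted p = 0.244). Cyp2a5 had an averaged log2 fold change of -0.29 ± 0.12 (SE, adjusted p = 0.138), which sums opposite differences at different times. Without KO mouse 46 of ZT0 it passed the threshold (-0.36, adjusted p = 0.0438).

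Of the remaining members, Cyp2g1 and Cyp2d12 were called. Cyp2g1, known as a steroid hydroxylase of the olfactory lining, had 0.851 to 8.51 CPM in WT (median 2.33) and 1.80 to 10.9 CPM in KO (median 5.32; 0.99 ± 0.17, SE, adjusted p = 0.000146). Cyp2d12, with a mean of 29.3 counts per library, was called at 0.48 ± 0.15 (SE, adjusted p = 0.0413). When mice were left out in turn the call was kept in 25 of 48 fits, with the largest adjusted p (0.0781) without KO mouse 43 of ZT0. Cyp2b9, Cyp2b10 and Cyp2b13, the genes most responsive to CAR activators and to sex, gave log2 fold changes of 0.08, 0.06 and 0.54 with adjusted p of 0.832, 0.827 and 0.397.

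The rest of subfamilies d, f, j, r and s were not called. Cyp2d26, the most abundant Cyp2d gene by counts, had 799 CPM ± 109 in WT and 819 CPM ± 98.8 in KO (SD, n = 24; 0.04 ± 0.05, SE). Cyp2f2, which activates naphthalene, had 589.5 CPM ± 199 and 595 CPM ± 240.4 (SD, n = 24; -0.00 ± 0.15, SE). Cyp2j5, an epoxygenase of arachidonic acid, varied little between mice, at 749.9 CPM ± 72.2 and 741 CPM ± 79.9 (SD, n = 24; -0.01 ± 0.04, SE). Cyp2r1, a vitamin D hydroxylase, had 22.7 CPM ± 3.21 and 24.7 CPM ± 2.39 (SD, n = 24) and missed the threshold (0.13 ± 0.04, SE, adjusted p = 0.0526). Cyp2s1, mainly an enzyme of tissues other than liver, had 0.612 CPM ± 0.188 and 0.634 CPM ± 0.208 (SD, n = 24; 0.07 ± 0.13, SE).

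Time by time, most calls came at ZT8, ZT12 and ZT20. At ZT12 11 members were called higher (6.59% of all genes) and 1 lower (5.12% of all genes), and at ZT8 6 were called higher (3.78%) and 3 lower (4.08%). At ZT20 8 members were called, each higher (0.647% of all genes were called higher and 0.404% lower), and at ZT0 4 were called, also each higher (1.06%, with 0.613% lower). ZT16 gave 3 called higher (2.6%) and 1 lower (2.77%), and ZT4 gave only Cyp2u1, lower (1.89%, with 1.9% higher). Counting both directions, the share of all genes called was highest at ZT12 (11.7%), followed by ZT8 (7.87%), ZT16 (5.37%), ZT4 (3.79%), ZT0 (1.68%) and ZT20 (1.05%). In all, 17 of 36 members were called at 1 time or more, against 23.3% of all genes. Among these, Cyp2c40 at ZT20 had 48.6, 123, 147 and 152 CPM in WT and 190.1, 269, 441 and 480.4 CPM in KO, with no overlap (1.55 ± 0.34, SE, adjusted p = 0.0143). Some per-time calls were lost when 1 mouse was left out, with the groups still apart. At ZT20 Cyp2c40 missed the threshold without KO mouse 39 (1.36 ± 0.35, SE, adjusted p = 0.0688). At ZT4 Cyp2u1 went from -1.22 ± 0.34 to -0.93 ± 0.35 (SE) without WT mouse 3 (adjusted p = 0.164), where the other WT mice had 5.24 to 8.65 CPM and the KO mice 3.16 to 4.69 CPM.

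A 24 h rhythm in WT liver was called for 10 of the 36 members, against 48.1% of all genes. Of these 10, 8 had fitted peaks between 6.81 h (Cyp2j9) and 14.005 h (Cyp2d26), and the others were Cyp2r1 (3.11 h) and Cyp2b10 (18.9 h). Cyp2a5, the coumarin hydroxylase that also oxidises nicotine, had the largest amplitude of any member, 1.4996 ± 0.14 (SE, log2, the fitted distance from mean to peak). This is a 7.996-fold range from trough to peak, with the peak at 11.6 h (adjusted p = 8.92e-11). In KO its amplitude was 0.31 ± 0.13 (SE, adjusted p = 0.265), and the rhythm difference was called (adjusted p = 4.76e-08).

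The values of Cyp2a5 show both patterns. WT mice had 167, 199, 275 and 279 CPM at ZT0 and 316, 363, 407 and 691 CPM at ZT4. They had 1348, 1403, 1538 and 2606 CPM at ZT8 and 1246, 1511, 1965 and 2128 CPM at ZT12. They had 1059.9, 1075, 1128 and 1146 CPM at ZT16 and 389, 436, 491 and 647 CPM at ZT20. In WT the 4 mice of ZT8 and those of ZT12 all lay above every mouse of the other times. KO mice lay between 309 and 1106 CPM at all times, with group means from 434 CPM ± 71.4 at ZT16 to 748 CPM ± 201.5 at ZT4 (SD, n = 4). KO mice were therefore higher at ZT0 (309, 542, 596 and 1106 CPM; 1.47 ± 0.31, SE, adjusted p = 0.00847) and lower at ZT8, ZT12 and ZT16. At ZT8 they had 321, 677, 817 and 849 CPM, at ZT12 321, 434, 652 and 759.9 CPM, and at ZT16 373, 396, 431 and 535 CPM, with no overlap with WT at any of the 3 times. The log2 fold changes there were -1.37, -1.66 and -1.35 (adjusted p = 0.00337, 0.000306 and 0.00637), and the interaction was called (adjusted p = 5.05e-07). The call at ZT0 was lost without KO mouse 46 (adjusted p = 0.0778).

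**Figure D4:**
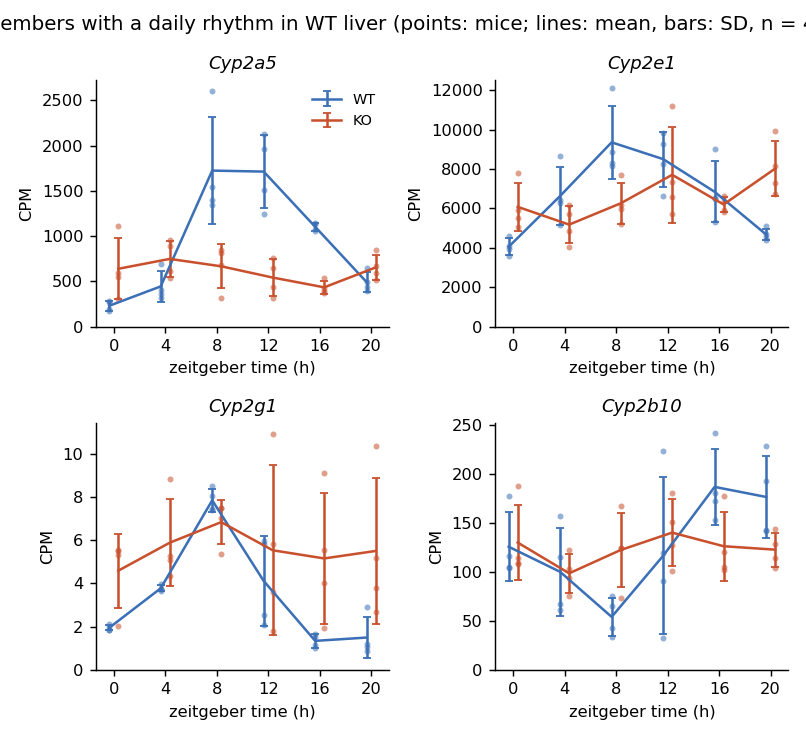
CPM (y axis) by zeitgeber time (x axis) for Cyp2a5, Cyp2e1, Cyp2g1 and Cyp2b10 in WT and KO liver, with each mouse as a point and lines for the mean ± SD (n = 4). WT Cyp2a5 rises from 230.1 CPM at ZT0 to 1724 CPM at ZT8, Cyp2b10 has its WT low point at ZT8 (54.0 CPM), and the KO lines are flatter in all 4 panels.

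Cyp2e1 followed a similar course with a smaller range. WT mice had 3583, 3943, 4070.1 and 4614 CPM at ZT0 and 8174, 8296, 8855 and 12112 CPM at ZT8, with no overlap. Its amplitude was 0.60 ± 0.08 (SE), with a peak at 10.2 h (adjusted p = 4.58e-07) and a 2.29-fold range in WT. In KO the amplitude was 0.21 ± 0.08 (SE, adjusted p = 0.214), and the rhythm difference (adjusted p = 0.000140) and the interaction (adjusted p = 0.000379) were called. KO was lower at ZT8 (-0.58 ± 0.18, SE, adjusted p = 0.0416) and higher at ZT20 (0.78 ± 0.18, SE, adjusted p = 0.0225). The ZT8 call was lost without WT mouse 16 (adjusted p = 0.219) and the ZT20 call without KO mouse 38 (adjusted p = 0.123).

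Cyp2g1 was scarce but nearly uniform between WT mice at several times. WT mice had 1.84, 1.86, 1.98 and 2.11 CPM at ZT0, 3.67, 3.73, 3.75 and 3.97 CPM at ZT4 and 7.40, 7.46, 8.05 and 8.51 CPM at ZT8. By ZT16 they were down to 1.01, 1.14, 1.54 and 1.67 CPM, so these 4 groups did not overlap. The WT amplitude was 1.24 ± 0.17 (SE) with a peak at 7.70 h (adjusted p = 7.17e-07), against 0.18 ± 0.16 (SE, adjusted p = 0.718) in KO. KO mice had 1.91, 4.03, 5.56 and 9.13 CPM at ZT16, all above the WT mice (1.94 ± 0.45, SE, adjusted p = 0.00802, and 0.0525 without KO mouse 26). The rhythm difference was called (adjusted p = 0.00259).

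Cyp2b10, the classic target of CAR, had a WT amplitude of 0.75 ± 0.14 (SE) and a peak at 18.9 h (adjusted p = 0.000170). This peak was later than those of Cyp2a5 (11.6 h), Cyp2e1 (10.2 h) and Cyp2g1 (7.70 h). WT mice had 33.2, 42.97, 64.7 and 75.1 CPM at ZT8 and 153, 172, 181 and 241 CPM at ZT16, with no overlap. KO mice at ZT8 had 73.8, 124, 124 and 167 CPM, and all but the lowest exceeded WT (1.18 ± 0.34, SE, adjusted p = 0.0253, and 0.0967 without WT mouse 11). The KO amplitude was 0.14 ± 0.14 (SE, adjusted p = 0.779). The rhythm difference was called (adjusted p = 0.0321), but not without WT mouse 11 of ZT8 (adjusted p = 0.0642).

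The other WT-rhythmic members had amplitudes of 0.14 to 0.44: Cyp2a12, Cyp2c44, Cyp2d22, Cyp2d26, Cyp2j9 and Cyp2r1. Cyp2a12 peaked at 11.3 h (amplitude 0.22 ± 0.05, SE, adjusted p = 0.00263), and its WT group means ran from 452 CPM at ZT0 to 660.0 CPM at ZT8. No rhythm in KO was called for any member by edgeR (0.984% of all genes). The closest to a call by edgeR were Cyp2c55 (adjusted p = 0.0530) and Cyp2c29 (adjusted p = 0.0554). At an unadjusted p under 0.05 there were 12 members, and DESeq2 called 3. The matching shares of all genes are not given here, so neither count is read as a result about the members.

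A rhythm difference between genotypes was called for 7 members (22.8% of all genes), and it went both ways. Cyp2a5, Cyp2e1, Cyp2g1, Cyp2b10 and Cyp2d22 had the larger amplitude in WT. Cyp2c55 and Cyp2c29 had the larger amplitude in KO. For Cyp2c55 the amplitude was 0.50 ± 0.21 (SE) in WT and 0.96 ± 0.23 (SE) in KO, where the fitted peak lay at 15.7 h (rhythm difference, adjusted p = 0.00166). For Cyp2c29 it was 0.13 ± 0.13 (SE) and 0.55 ± 0.13 (SE), with the KO peak at 15.8 h (adjusted p = 0.0234). Cyp2d22, a counterpart of the human drug-metabolising CYP2D enzyme, differed less in amplitude (0.23 ± 0.06 in WT and 0.17 ± 0.06 in KO, SE), with fitted peaks at 10.4 h and 17.1 h (adjusted p = 0.0144). The amplitude was larger in WT for 19 of the 36 members, against 10674 of the 14836 genes tested. The median amplitude was 0.18 in WT and 0.20 in KO among the members, and 0.18 and 0.11 among all genes.

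**Figure D5:**
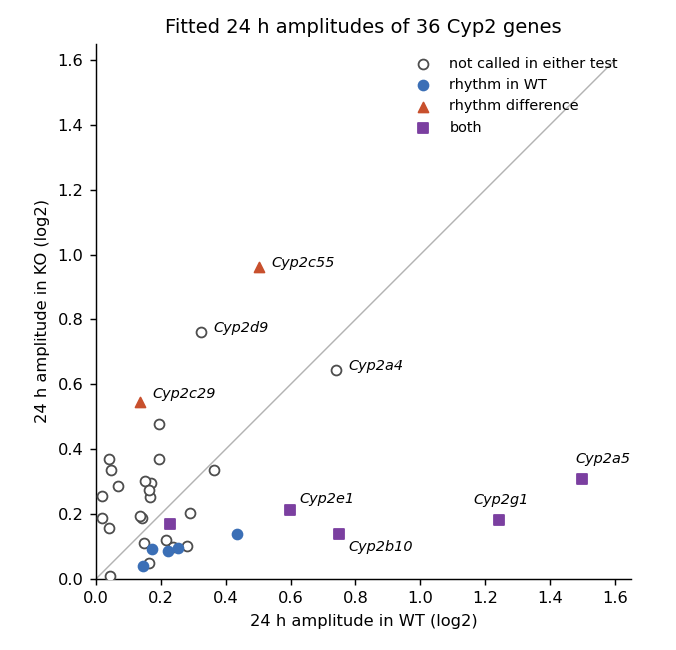
Fitted 24 h amplitude on the log2 scale in WT (x axis) and KO (y axis) for the 36 Cyp2 genes, with the diagonal marking equal amplitudes and symbols marking which tests were called. Cyp2a5, Cyp2g1, Cyp2b10 and Cyp2e1 lie far below the diagonal, with WT amplitudes of 0.60 (Cyp2e1) to 1.4996 (Cyp2a5) and KO amplitudes of 0.14 to 0.31, while Cyp2c55, Cyp2c29 and Cyp2d9 lie above it.

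The genotype by time interaction, which allows any shape over the 6 times, was called for 9 members (20.7% of all genes). Besides Cyp2a5, Cyp2e1 and Cyp2c55 these were Cyp2d12 (adjusted p = 0.00684), Cyp2j6 (0.0172), Cyp2g1 (0.0309), Cyp2d22 (0.0381), Cyp2c29 (0.0461) and Cyp2b10 (0.0477). Cyp2j6, an epoxygenase, had 71.1 CPM ± 12.3 in WT and 97.0 CPM ± 6.95 in KO at ZT12 (SD, n = 4; 0.45 ± 0.14, SE, adjusted p = 0.0247, and 0.144 without WT mouse 23). Cyp2d12 was called at ZT0, where WT mice had 0.130, 0.385, 0.423 and 0.697 CPM and KO mice 0.672, 0.866, 1.02 and 2.94 CPM; without KO mouse 43, the highest, the adjusted p was 0.136. The calls of Cyp2c29 and Cyp2b10 held in 16 and 12 of the 48 fits without one mouse, and that of Cyp2d22 in 33. The largest adjusted p values were 0.0967 for Cyp2c29 without KO mouse 1, 0.120 for Cyp2b10 without WT mouse 11 and 0.0756 for Cyp2d22 without WT mouse 16.

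Genes that P450 enzymes depend on were examined in the same fits. Of 14 electron donors and heme enzymes, Cyb5, the electron donor cytochrome b5, was called higher (0.13 ± 0.04, SE, adjusted p = 0.0371). Fech, which inserts iron into heme, was called lower (-0.10 ± 0.03, SE, adjusted p = 0.0419). Averaged over the times, 4.94% of all genes were called higher and 3.92% lower. A WT rhythm was called for 11 of these 14 genes (48.1% of all genes) and a rhythm difference for 5 (22.8% of all genes), the latter including Por, the P450 oxidoreductase, and Alas1, the rate-limiting enzyme of heme synthesis. Of 22 transcription factors known to act on Cyp2 genes, only Arnt was called on average (-0.13 ± 0.04, SE, adjusted p = 0.0409), against 4.94% of all genes called higher and 3.92% lower. A WT rhythm was called for 17 of the 22 (48.1% of all genes) and a rhythm difference for 13 (22.8% of all genes). Nr1i3, which encodes CAR, had 125 CPM ± 33.8 in WT and 139 CPM ± 24.1 in KO (SD, n = 24; 0.18 ± 0.07, SE, adjusted p = 0.114) with a WT peak at 9.86 h, and Nr1i2, which encodes PXR, was not called (-0.10 ± 0.05, SE, adjusted p = 0.211).

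Grouped by known regulation, 5 of the 6 genes listed as CAR-induced were called higher (4.94% of all genes), all of them Cyp2c genes, with Cyp2b10 as the exception. Cyp2b9 (0.08, adjusted p = 0.832) and Cyp2b13 (0.54, adjusted p = 0.397), also responsive to CAR activators, were not on this list and were not called. Of the Cyp2c genes off the list, Cyp2c39, Cyp2c40, Cyp2c68, Cyp2c69 and Cyp2c70 were called higher, while Cyp2c38, Cyp2c44 and Cyp2c67 were not called. The 8 female-biased genes had 3 called higher (Cyp2c39, Cyp2c40 and Cyp2c69), and their summed level ran from 399.8 to 1149 CPM in WT (median 892) and from 531 to 1914 CPM in KO (median 1392). Within that sum the largest changes in mean were those of Cyp2c69 (109 CPM in WT, 426 in KO) and Cyp2c40 (160 and 312). Cyp2a4 (121 and 79.2), Cyp2b9 (234 and 250), Cyp2b10 (126 and 123), Cyp2b13 (9.55 and 15.3) and Cyp2c38 (69.1 and 74.4) were not called. The sum therefore does not describe female-biased genes as a group. Of the 2 male-biased genes Cyp2u1 was called lower (3.92% of all genes) and Cyp2d9, a testosterone hydroxylase, was not (-0.33 ± 0.21, SE, adjusted p = 0.360). Cux2, a female-biased repressor in liver, had 7.12 CPM ± 9.34 in WT and 12.6 CPM ± 10.7 in KO, and Bcl6, a male-biased repressor, 31.9 CPM ± 26.2 and 20.0 CPM ± 20.98 (SD, n = 24). Neither was called (adjusted p = 0.114 and 0.242).

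Many of these enzymes are made by hepatocytes near the central vein, and some zonal markers were called between the genotypes, against 8.86% of all genes. Of 8 pericentral markers Glul (0.22 ± 0.06, SE, adjusted p = 0.0230) and Rhbg (0.44 ± 0.08, SE, adjusted p = 0.000189) were called higher, and the other 6 were not called. Of 8 periportal markers Cdh1 (-0.55 ± 0.10, SE, adjusted p = 0.000236), Ass1 (-0.19 ± 0.06, SE, adjusted p = 0.0331) and Hal (-0.21 ± 0.07, SE, adjusted p = 0.0469) were called lower, and the other 5 were not called. The summed pericentral level was 1601 to 4071 CPM in WT and 2446 to 4737 CPM in KO, and the summed periportal level 6232 to 13293 CPM and 6344 to 11450.1 CPM. The part of zonation in the Cyp2 differences was not tested. Body weight was lower in KO mice, and with weight in the model 12 members were called higher and 1 lower, while the shares of all genes were 2.57% and 2.22%.

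Across mice, after each group's mean was removed, closely related genes often varied together. Of 24 relations examined (12 pairs in each genotype), Cyp2c40 and Cyp2c69 in WT had the highest correlation (Pearson r = 0.959, permutation p = 1e-05, adjusted 8e-05, Spearman rho = 0.958, r = 0.959 without the 2 mice farthest from the median). In KO the same pair had r = 0.547 (permutation p = 0.0206, adjusted 0.0449, rho = 0.496), and 0.434 without 2 mice (adjusted p = 0.150), so the KO call rests on those mice. Cyp2c50 and Cyp2c54 had r = 0.947 in WT and 0.924 in KO (permutation p = 1e-05 and adjusted p = 8e-05 in both, rho = 0.918 and 0.894, and r = 0.921 and 0.885 without 2 mice). The value 1e-05 is the smallest the permutations can give. These pairs share reads by sequence, so part of such a correlation can come from counting, which was not tested.

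Among the other pairs, Cyp2c29 and Cyp2c39 ran against each other in WT (r = -0.628, permutation p = 0.000960, adjusted 0.00329, rho = -0.640, r = -0.591 without 2 mice). In KO the pair gave r = -0.536 (permutation p = 0.0326, adjusted 0.0651, rho = -0.606, r = -0.546 without 2 mice). Cyp2b9 and Cyp2b13 varied together in both genotypes (r = 0.822 in WT, permutation p = 3e-05, adjusted 0.000180, rho = 0.873, and 0.743 in KO, permutation p = 0.00562, adjusted 0.0150, rho = 0.644), with r = 0.822 and 0.797 without 2 mice. Cyp2a4 and Cyp2a5, the most alike pair by sequence, had r = -0.123 in WT (permutation p = 0.581, adjusted 0.606, rho = -0.145, r = -0.278 without 2 mice) and r = 0.357 in KO (permutation p = 0.141, adjusted 0.199, rho = 0.421, r = 0.363 without 2 mice), neither of them called. Dbp and Cyp2a5 were related in KO (r = 0.635, permutation p = 0.00230, adjusted 0.00690, rho = 0.692, r = 0.552 without 2 mice), while in WT r was 0.239 (permutation p = 0.392, adjusted 0.462, rho = 0.141, r = 0.175 without 2 mice). Whether the KO and WT correlations differ was not tested.

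The promoters of Cyp2a4 and Cyp2a5 are shown because Cyp2a5 had the strongest rhythm of the family and Cyp2a4 is its near-copy. No WT rhythm was called for Cyp2a4, but with its wide spread between mice this does not show that it lacked one. Its WT group means ran from 63.96 CPM ± 56.3 at ZT4 to 199 CPM ± 84.99 at ZT12 (SD, n = 4). Each run is the 250 bases upstream of the gene's start in RefSeq (GRCm38.p6, plus strand), at chr7:26306942-26307191 for Cyp2a4 and chr7:26835089-26835338 for Cyp2a5. Capitals mark the reverse complement of TTATGCAA, a D-box-like motif that was added to the search after the Cyp2a5 promoter had been read.
Cyp2a4: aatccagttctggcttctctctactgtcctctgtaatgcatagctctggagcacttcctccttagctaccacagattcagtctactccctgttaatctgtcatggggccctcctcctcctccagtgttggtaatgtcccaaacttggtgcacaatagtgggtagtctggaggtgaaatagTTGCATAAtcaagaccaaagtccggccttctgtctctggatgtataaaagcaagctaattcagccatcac
Cyp2a5: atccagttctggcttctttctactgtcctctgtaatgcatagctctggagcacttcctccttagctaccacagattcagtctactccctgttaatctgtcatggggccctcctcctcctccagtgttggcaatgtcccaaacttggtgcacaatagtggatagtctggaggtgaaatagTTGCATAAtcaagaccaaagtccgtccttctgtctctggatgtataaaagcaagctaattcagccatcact
The motif starts 70 bases before the start of Cyp2a4 and 71 before that of Cyp2a5. Among the 30 members with a RefSeq promoter it was found on either strand in 3, the third being Cyp2b10 (58 bases before the start). Among all 32851 promoters of the same length 0.694% held it. The motif was taken from the Cyp2a5 promoter, and the Cyp2a4 window is nearly the same sequence. The match in Cyp2a5 was therefore fixed beforehand, and the count of 3 is no test of enrichment. The D-box letters TTATGTAA and TTACGTAA were in no member's window (0.819% and 0.113% of all promoters). TTATNTAA, which also takes in TTATGTAA, was in 1, Cyp2c70 (3.17% of all), and the E-box CACGTG was in 1, Cyp2j6 (6.02% of all). Of 2 further motifs searched, AGGTCA, the core of sites for ROR and REV-ERB factors, was in 7 members (14% of all promoters), and TTCNNNGAA, the core of STAT5 sites, was in no member's window (7.02% of all). All 7 motifs were searched on both strands. These matches describe letters within a window and not binding.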

How the data were processed

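Poly-A RNA of 48 livers was sequenced without strand information. Per the submitters' processing notes, the authors called bases with CASAVA and aligned with STAR 2.4.0f1 to mm9. The deposited values are whole-number read counts per gene, not normalized. The gene models, the counter, the treatment of reads matching several genes and the step that made library totals nearly equal are not given in the sources used here, so the number of reads sequenced is unknown. Column headers write the hours as CT and the labels as ZT.

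For testing, the counts went into edgeR 4.0.16 under R 4.3.3 (filterByExpr with a minimum count of 10, TMM scaling, quasi-likelihood F tests) on all 14836 genes kept. The genotype difference (averaged over the 6 times, or at 1 time) and the interaction come from a fit of the 12 group means with 36 residual degrees of freedom. Rhythms and their difference come from a fit of 24 h waves in which each genotype has its own cosine and sine (42 residual degrees of freedom). All p values were adjusted by Benjamini-Hochberg across the genes tested, and a gene was called below 0.05. SE were derived from F statistics, and those of amplitudes are approximate. Levels are TMM-scaled CPM computed here. Correlations used log2 CPM (prior count 2) with 100000 permutations within times, two-sided. Alternatives were other scalings, no filter, body weight as a covariate, leaving out mice, DESeq2 1.42.0 and limma 3.58.1 voom with cage as a random block, and a paired edgeR fit of the 11 WT and KO cage-mate pairs (cage as a fixed block, chosen after seeing the data). No 2 libraries were alike: the variance between replicates was 28.2 to 160 times that of counting.

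Members and gene lists were chosen with earlier results of these data known. Members described in full are the 12 with the smallest p among those called on average, 4 markers (Cyp2a5, Cyp2c55, Cyp2c69 and Cyp2u1), the highest of each letter, the 5 smallest p of the interaction and each rhythm test, and the 2 smallest at each time; others named with several values (Cyp2a4, Cyp2c67, Cyp2c39 and Cyp2d9) were chosen after their values were seen. Sharing of sequence was computed from GENCODE M21 transcripts, where 36 of 36 members were found, 2 of them by symbol. On simulated counts for the averaged comparison, 94% of 100 genes changed by 0.5 on the log2 scale and 99% of 100 changed by 1 were recovered among 14836 genes.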

Additional observations from a re-analysis of the deposited data

Results flagged for a closer look

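In 27 of 300 groups (25 members in 12 groups of 4), 1 mouse stood apart from the other 3, where chance gives about 1 group in 20, which is 5%. The groups reuse the same mice, and closely related members often varied together. They are therefore not independent, and the count of 27 is no test against that rate. WT mouse 16 of ZT8 stood apart for 4 members: Cyp2a5 (2606 CPM, others 1348 to 1538), Cyp2c37 (514, others 341 to 353), Cyp2d26 (983, others 701 to 735) and Cyp2c40 (109, others 155 to 164). KO mouse 44 of ZT0 stood apart for Cyp2b10 (188 CPM, others 108 to 114), Cyp2c37 (1130.2, others 538 to 564) and Cyp2c68 (671, others 421 to 461). KO mouse 43 of ZT0 did so for Cyp2d12 (2.94 CPM, others 0.672 to 1.02), Cyp2g1 (2.03, others 5.30 to 5.54) and Cyp2u1 (6.36, others 2.72 to 3.28). KO mouse 20 of ZT12 was the highest for Cyp2c40 (473 CPM, others 312 to 327), Cyp2d22 (337, others 220.4 to 229) and Cyp2j6 (107, others 93.0 to 94.0).

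WT mouse 3 of ZT4 stood apart for Cyp2d12 (1.03 CPM, others 0.806 to 0.832) and Cyp2s1 (0.266, others 0.416 to 0.443), and WT mouse 4 of ZT4 for Cyp2c29 (2004, others 3012 to 3187) and Cyp2c68 (467, others 420.3 to 427). The other mice stood apart once each. Among WT mice these were mouse 19 of ZT12 for Cyp2a22 (15.3 CPM, others 5.48 to 6.78), mouse 40 of ZT20 for Cyp2g1 (2.89, others 0.851 to 1.19), and 3 mice of ZT0. The latter were mouse 42 for Cyp2b10 (178, others 104 to 116), mouse 48 for Cyp2c40 (213, others 171 to 174) and mouse 45 for Cyp2u1 (5.83, others 8.03 to 8.30). Among KO mice these were mouse 15 of ZT8 for Cyp2c37 (951 CPM, others 575 to 603), mouse 14 of ZT8 for Cyp2u1 (2.65, others 3.17 to 3.27) and mouse 25 of ZT16 for Cyp2c40 (224, others 319.7 to 324). Cyp2d26 stood apart in mouse 41 of ZT0 (655 CPM, others 805 to 821) and mouse 1 of ZT4 (963, others 726 to 743).

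The genotype difference itself varied over the times, by the interaction test, for 9 members (20.7% of all genes). The calls of Cyp2c29 and Cyp2b10 were lost in most of the fits that left out a mouse. The adjusted p was 5.05e-07 for Cyp2a5, 0.000379 for Cyp2e1, 0.000874 for Cyp2c55, 0.00684 for Cyp2d12, 0.0172 for Cyp2j6, 0.0309 for Cyp2g1, 0.0381 for Cyp2d22, 0.0461 for Cyp2c29 and 0.0477 for Cyp2b10.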

How the results depend on the processing

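Of the counts of members called, those higher on average stayed between 12 and 15 over 7 alternatives chosen at the start and between 13 and 15 when each mouse was left out in turn. The count lower on average was 1 to 2, called at 1 time or more 16 to 19, rhythmic in WT 9 to 12, rhythm difference 6 to 10 and interaction 5 to 11 when a mouse was left out (5 without KO mouse 9 of ZT8, 2 lower without KO mouse 46 of ZT0). Over the 7 alternatives, members called at 1 time or more numbered 16 to 22 and those of the interaction 6 to 13, with the highest by DESeq2, and 10 to 12 were rhythmic in WT. Members rhythmic in KO numbered 0 to 2 with a mouse left out (2 without KO mouse 44 of ZT0, 15 of ZT8, 18 of ZT12, 26 or 31 of ZT16), 1 without the 4 libraries farthest from their groups and 3 by DESeq2. The rhythm difference was called for 11 members without those 4 libraries. Mouse numbers are shared by no groups, so pairing came from cages. With cage as a random block in all mice 13 members were called higher (4.87% of all genes) and 1 lower (4.14%). The cage correlation was 0.0806 in the fit of group means and 0.158 in the fit of waves. In the paired fit of 22 cage mates 9 were called higher and 0 lower (0.8291% and 0.6134% of all genes). In the same mice without the block the counts were 8 and 0 (0.8021% and 0.5055%), with fewer mice in both fits. Deviations of cage mates from their group means correlated at -0.237 to 0.345, over 0.1 in 4 of 11 cages. Over all genes, the split of higher against lower calls was 733 to 581, 636 to 618 with total counts as scaling, and 381 to 330 with body weight.

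Averaged log2 fold changes that changed sign belonged to members not called. With body weight as a covariate they were -0.10 for Cyp2b10, -0.17 for Cyp2b9, -0.0090 for Cyp2d26, -0.013 for Cyp2e1, 0.0013 for Cyp2f2 and -0.17 for Cyp2s1. Without the 4 libraries they were -0.0078 for Cyp2d26 and -0.041 for Cyp2e1, and by limma with cage 1.93e-05 for Cyp2f2. Among cage mates, with and without the block, they were -0.025 and -0.091 for Cyp2b10, -0.029 and -0.031 for Cyp2d26, 0.032 and 0.036 for Cyp2j5, and -0.024 and -0.033 for Cyp2s1. With a mouse left out they ran from -0.014 to 0.194 for Cyp2b9, -0.016 to 0.0508 for Cyp2e1, -0.0747 to 0.0636 for Cyp2f2 and -0.0374 to 0.00016 for Cyp2j5. Summed over the whole subfamily, Cyp2a was at -0.10 where Cyp2a12 and Cyp2a22 were called higher, and Cyp2d at -0.018 where Cyp2d12 was. Cyp2d12 lost its call with no filter (adjusted p = 0.0601), with body weight (0.0915), without the 4 libraries (0.180) and by limma with cage (0.0678), and DESeq2 called Cyp2r1 (0.0436). Sums over near-identical genes were added after seeing the data. Without the 2 mice farthest out, Dbp and Cyp2c50 went to r = 0.0663 in WT and 0.0252 in KO, Cyp2c40 and Cyp2c69 in KO to 0.434, and Cyp2e1 and Cyp2f2 in KO to 0.388. The cause of these changes was not tested. Members under 1 CPM (Cyp2d11, Cyp2d12 and Cyp2s1) are limited by counts.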
